A study of Mus musculus with 72 samples.

Results

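The 10 genes described here mark natural killer (NK) cells and the granules with which NK cells and cytotoxic T cells kill their targets. They are Ncr1, Klrd1, Klrk1, Klrb1c and Klre1, which encode surface receptors, Gzma, Gzmb, Prf1 and Nkg7, which encode parts of the cytotoxic granule, and Eomes, which encodes a transcription factor. Members were found by name, through the RefSeq transcript printed for each probe of the mRNA array, with no use of measured values. They are 10 of 23787 genes named in this way and are measured by 14 probes. All 14 probes were followed, and a gene with several probes is given by its brightest probe unless stated. The animals were C57BL/6 J females of 6 to 8 weeks. The irradiated groups differed in the size of a single whole-body X-ray exposure, whose surface dose was 1, 2, 4, 8 or 12 in Gy. Controls, at 0 Gy, were sham irradiated. Liver and lung were taken at 48 h, and each of the 6 doses had 3 samples per tissue, so that 36 arrays of 1 colour were read, 18 from each tissue. The whole tissue was ground and extracted, and no cell type was sorted. All groups are of 1 sex, strain and time, so nothing here describes other times after exposure.

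NK cells are lymphocytes that kill infected, transformed or stressed cells without prior sensitization. They weigh signals from activating receptors, such as NKp46 (Ncr1) and NKG2D (Klrk1), against signals from inhibitory receptors that read MHC class I molecules. When activation prevails, granules are released toward the target, perforin (Prf1) opens the target membrane, and granzymes (Gzma, Gzmb) enter and cleave proteins that start cell death. NK cells are abundant among liver lymphocytes and in the lung, where many lie within the blood vessels. Granzymes, perforin, Nkg7, Eomes, Klrd1 and Klrk1 are also made by cytotoxic T cells, so that in whole tissue only part of the list is particular to NK cells.

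The receptors Klrd1, Klrk1, Klrb1c and Klre1 lie on chromosome 6 in the NK gene complex, Ncr1 and Nkg7 on chromosome 7, Eomes on chromosome 9, Prf1 on chromosome 10, Gzma on chromosome 13 and Gzmb on chromosome 14. RefSeq promoter windows of mouse build GRCm38.p6, which run from 250 bases before the transcription start to 50 bases after it, were found for 9 of the 10 genes (11 windows, since Ncr1 and Klre1 have a pair of starts each), and Klrd1 was not matched. Windows were searched on both strands for 4 short motifs of factors known from NK cells and cytotoxic T cells. The RUNX motif TGTGGT was in 9 of 11 windows and 8 of 9 genes, all but Eomes, against 16.8% of 32851 promoter windows of the same length. The T-box motif TCACACC, the type bound by Eomes and T-bet, was found in Nkg7 alone, against 3.98% of all windows. The STAT motif TTCNNNGAA was in Nkg7 and Gzmb (8.30% of all windows), and the Ets motif CCGGAA was in none of the 11 (14.9% of all windows). No match overlapped another. A match is a description of the letters and not evidence of binding. The windows of the 4 granule genes and Ncr1 are printed as examples, 5′ to 3′ on the strand of the gene, with each match in capitals.
Ncr1, chr7:4337465-4337764 (plus strand): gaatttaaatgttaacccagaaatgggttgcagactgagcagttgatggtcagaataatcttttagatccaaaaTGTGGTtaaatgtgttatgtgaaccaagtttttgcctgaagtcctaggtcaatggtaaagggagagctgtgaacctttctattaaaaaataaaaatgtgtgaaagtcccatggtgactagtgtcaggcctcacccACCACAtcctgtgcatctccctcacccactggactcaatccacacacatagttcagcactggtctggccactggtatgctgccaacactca
Gzma, chr13:113100932-113101231 (minus strand): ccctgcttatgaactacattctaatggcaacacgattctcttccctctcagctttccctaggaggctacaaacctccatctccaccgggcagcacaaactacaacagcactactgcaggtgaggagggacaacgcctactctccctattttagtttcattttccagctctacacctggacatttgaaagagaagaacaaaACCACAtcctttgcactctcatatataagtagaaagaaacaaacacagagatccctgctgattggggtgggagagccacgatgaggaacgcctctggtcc
Gzmb, chr14:56262285-56262584 (minus strand): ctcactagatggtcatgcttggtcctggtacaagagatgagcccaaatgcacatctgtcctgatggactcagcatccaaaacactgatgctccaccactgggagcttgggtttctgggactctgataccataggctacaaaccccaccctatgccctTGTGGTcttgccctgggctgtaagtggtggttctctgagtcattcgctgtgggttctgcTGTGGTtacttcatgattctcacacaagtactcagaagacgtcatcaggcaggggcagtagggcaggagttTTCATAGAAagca
Prf1, chr10:61297586-61297885 (plus strand): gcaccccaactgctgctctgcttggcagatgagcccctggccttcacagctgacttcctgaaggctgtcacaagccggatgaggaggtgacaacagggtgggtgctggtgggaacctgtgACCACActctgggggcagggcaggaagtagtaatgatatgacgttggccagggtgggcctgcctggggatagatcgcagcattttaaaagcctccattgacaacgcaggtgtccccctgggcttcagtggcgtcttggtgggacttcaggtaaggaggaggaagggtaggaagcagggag
Nkg7, chr7:43436888-43437187 (plus strand): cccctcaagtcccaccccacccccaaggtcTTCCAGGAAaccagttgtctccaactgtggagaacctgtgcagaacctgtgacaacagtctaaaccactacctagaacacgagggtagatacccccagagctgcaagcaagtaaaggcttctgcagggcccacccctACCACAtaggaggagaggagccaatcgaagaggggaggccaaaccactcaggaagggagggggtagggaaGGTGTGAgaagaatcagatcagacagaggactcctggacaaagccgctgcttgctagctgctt

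Counted in bases from the transcription start, with a minus sign before it, RUNX matches began at -176 and -41 in Ncr1, -50 in Gzma, -93 and -34 in Gzmb, -130 in Prf1 and -83 in Nkg7. The T-box match of Nkg7 began at -13 and its STAT match at -220, whereas the STAT match of Gzmb began at 38, after the start.

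**Figure D1:**
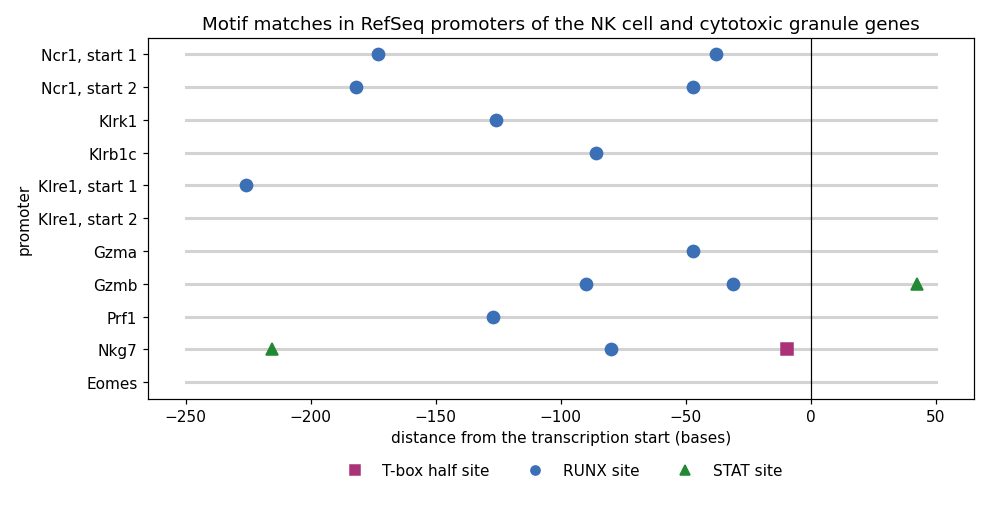
Motif matches in the RefSeq promoter windows of 9 genes. The x axis is the distance from the transcription start in bases, each row is a window, and points mark the centre of each match by motif. RUNX matches stand in 9 of 11 windows, 1 T-box match stands in Nkg7, and the window of Eomes and that of the other start of Klre1 hold none.

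The labelled tissues matched their defining markers. The summed linear intensity of 9 hepatocyte markers was 2370000 to 2520000 in liver and 990 to 20600 in lung, except for 107000 on the lung array of 4 Gy replicate 24, while 9 alveolar and airway markers summed to 1510000 to 1750000 in lung and to 2490 to 7210 in liver. Between 46.1% and 54.0% of spots were well above background on liver arrays and between 54.1% and 64.0% on lung arrays, and no spot was saturated. The arrays came from 5 slides, here A to E. Slide E, scanned later than the others, held all 3 lung arrays of 12 Gy and 1 of 8 Gy, with 54.1% to 54.8% of spots above background, against 59.2% to 64.0% on lung slides C and D. Lung doses of 0 and 1 Gy lay on C, and 2 Gy, 4 Gy and the other 2 arrays of 8 Gy on D. In lung, each dose from 2 Gy upward and the slide therefore cannot be told apart against 0 Gy. Liver doses of 0 and 1 Gy and 2 arrays of 2 Gy lay on A. The last array of 2 Gy, all of 4 and 8 Gy and 1 of 12 Gy lay on B, and 2 of 12 Gy on C. No liver array of 4, 8 or 12 Gy thus shared a slide with a control, and a lone array of 2 Gy linked B to A.

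Without irradiation 7 of the 10 NK and granule genes were called higher in lung than in liver, with all 36 arrays normalized together, where called means a log2 fold change above 1 in size with a Benjamini-Hochberg adjusted p below 0.05 in limma. Of all 47376 tested probes, 18% were called higher in lung in this comparison. Gzma, granzyme A, stood 10.2-fold higher in lung, at a mean log2 level of 12.50 against 9.15 (log2 difference 3.35 ± 0.26 SE, n = 3 per tissue, adjusted p = 4.12e-12). Klrd1, the CD94 chain that pairs with NKG2 receptors, stood 6.46-fold higher (10.48 against 7.79), and Nkg7, a granule membrane protein, 3.95-fold higher (10.69 against 8.71). Klrb1c, which encodes the NK1.1 antigen used to identify NK cells in this strain, was 2.66-fold higher. Klre1, Eomes and Ncr1, also among the 7, were not well above background on any liver array at 0 Gy. Against those background values they read 3.75-fold, 3.09-fold and 3.06-fold higher in lung, and these folds are not lower limits. Eomes was above background on no liver array and passed the filter through lung alone. For Klre1, Eomes and Ncr1 a higher level in lung was the only direction that could be seen. Gzma, Klrd1, Nkg7 and Klrb1c were called and measurable in both tissues. Klrk1 (0.36 ± 0.26, adjusted p = 0.272) and Gzmb (0.35 ± 0.28, adjusted p = 0.319) were not shown to differ between the tissues, with 95% intervals of the log2 difference from -0.18 to 0.90 and from -0.23 to 0.92. Prf1 passed the p threshold but not the fold (0.75 ± 0.25, adjusted p = 0.0142). At 0 Gy all liver arrays were on slide A and all lung arrays on slide C, so the compared groups shared no slide. When slide was a fixed term, Klrb1c (1.31, adjusted p = 0.117) and Eomes (-0.13, adjusted p = 0.852) were no longer called. With the mean of all probes Eomes (0.62, adjusted p = 0.0736) and Klrb1c (0.96) lost their call, and with a normexp offset of 50 Ncr1 (0.85) and Eomes (0.91) did, under the fold threshold.

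In lung all 10 genes were lower at 12 Gy than at 0 Gy, and 8 were already called at 8 Gy. No gene was called at 1 or 2 Gy. Klrd1 and Eomes were called at 4 Gy. Ncr1, Klrk1, Klrb1c, Klre1, Gzma and Nkg7 followed at 8 Gy, and Prf1 and Gzmb at 12 Gy. Whole tissue was measured, so fewer NK cells or T cells and less RNA per cell cannot be told apart.

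Among the lung receptors, Klrd1 gave the widest change. Its log2 levels were 11.10, 11.05 and 10.88 at 0 Gy, 10.86, 10.77 and 10.77 at 1 Gy, 10.03, 10.74 and 10.58 at 2 Gy, 9.61, 9.23 and 9.94 at 4 Gy, 8.83, 8.95 and 8.35 at 8 Gy, and 7.78, 8.37 and 8.04 at 12 Gy. From 1 Gy upward no irradiated array reached the lowest control, and the groups at 2, 4 and 8 Gy did not overlap one another. Klrd1 was 4.93-fold lower at 8 Gy (log2 fold change -2.30 ± 0.22, adjusted p = 1.25e-05) and 7.72-fold lower at 12 Gy (-2.95 ± 0.22, adjusted p = 6.81e-07), while the step from 8 to 12 Gy was within the threshold (-0.65 ± 0.22, adjusted p = 0.148).

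Ncr1, the activating receptor NKp46 found almost solely on NK cells and related innate lymphocytes, was at 7.03, 7.21 and 7.32 at 0 Gy, 6.39, 6.90 and 6.86 at 4 Gy, 5.98, 6.01 and 5.50 at 8 Gy, and 5.43, 5.99 and 5.09 at 12 Gy. The last array of 8 Gy and 2 arrays of 12 Gy were not well above background, and every array from 4 Gy upward lay below every control. Ncr1 was called at 8 Gy (-1.36 ± 0.26, adjusted p = 0.00555) and was 3.22-fold lower at 12 Gy (-1.69 ± 0.26, adjusted p = 0.000567). Klrk1, the activating receptor NKG2D, read 9.96, 9.77 and 9.86 at 0 Gy, 8.30, 8.30 and 9.17 at 8 Gy, and 7.88, 8.87 and 8.15 at 12 Gy. Both irradiated groups lay below the controls, with 1 array of each higher than the other 2, and at 12 Gy Klrk1 was 2.95-fold lower (-1.56 ± 0.26, adjusted p = 0.00102).

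Klrb1c read 8.43, 8.64 and 8.77 at 0 Gy and 6.45, 7.08 and 7.0 at 12 Gy, a 3.41-fold lower level (-1.77 ± 0.28, adjusted p = 0.00076). Klre1, a receptor of NK cells whose signal depends on its partner chain, read 7.80, 7.92 and 7.79 at 0 Gy and 5.74, 5.70 and 5.92 at 12 Gy, where 1 of 3 arrays was well above background, and was 4.14-fold lower (-2.05 ± 0.22, adjusted p = 4.49e-05). Neither pair of groups overlapped. At 8 Gy Klrb1c was called (-1.26 ± 0.28, adjusted p = 0.0175), and so was Klre1 (-1.16 ± 0.24, adjusted p = 0.0126) with 2 arrays, since its outlier spot on the other array was set to missing, and with that spot kept the change was -0.64 (adjusted p = 0.496). Another Klrb1c probe was also called at 12 Gy (-1.15 ± 0.23, adjusted p = 0.00306), as was another Klre1 probe (-2.41 ± 0.41, adjusted p = 0.00113), and the last Klrb1c probe, well above background on 3 lung arrays, gave -0.36 ± 0.20 (adjusted p = 0.222).

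Of the granule genes, Gzma encodes a serine protease of tryptase type and was the brightest member probe. Its lung levels were 12.88, 12.86 and 12.74 at 0 Gy, 12.98, 12.44 and 12.81 at 1 Gy, 12.29, 12.94 and 12.63 at 2 Gy, 11.62, 12.17 and 12.31 at 4 Gy, 10.88, 11.15 and 11.61 at 8 Gy, and 10.40, 11.55 and 10.87 at 12 Gy. The 1 and 2 Gy groups overlapped the controls, and the 8 and 12 Gy groups overlapped each other. Gzma was 3.07-fold lower at 8 Gy (-1.62 ± 0.28, adjusted p = 0.0025) and 3.71-fold lower at 12 Gy (-1.89 ± 0.28, adjusted p = 0.000415). Nkg7, needed for the release of granules, followed a like course at 11.14, 11.11 and 11.36 at 0 Gy, 9.64, 10.52 and 10.31 at 4 Gy, 8.92, 9.41 and 9.99 at 8 Gy, and 8.64, 9.54 and 8.72 at 12 Gy. Nkg7 was 3.40-fold lower at 8 Gy (-1.76 ± 0.30, adjusted p = 0.00181) and 4.71-fold lower at 12 Gy (-2.24 ± 0.30, adjusted p = 0.000156).

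Gzmb, granzyme B, which cleaves caspases and their substrates, read 8.74, 8.81 and 8.84 at 0 Gy, 7.44, 8.21 and 8.20 at 8 Gy, and 7.31, 8.08 and 7.54 at 12 Gy. The 8 Gy arrays lay below the controls without passing the test (-0.85 ± 0.27, adjusted p = 0.102), and at 12 Gy Gzmb was 2.23-fold lower (-1.16 ± 0.27, adjusted p = 0.00803), or -0.99 (adjusted p = 0.0309) without 12 Gy replicate 6, under the fold threshold. That call was also lost with a normexp offset of 50 (-0.98) and with slide as a random block (-1.21, adjusted p = 0.0772). Prf1, perforin, read 8.67, 8.75 and 8.67 at 0 Gy, 7.91, 9.11 and 8.82 at 4 Gy, 8.82, 8.33 and 7.58 at 8 Gy, and 6.49, 7.04 and 6.64 at 12 Gy. The groups up to 8 Gy held arrays above the control levels, and the 12 Gy group lay below all controls, with a 3.94-fold lower level (-1.98 ± 0.31, adjusted p = 0.000725). Between 8 and 12 Gy the Prf1 difference was -1.52 ± 0.31 (adjusted p = 0.0529). All arrays of 12 Gy were on slide E, where the lone 8 Gy array had the lowest Prf1 level of its group (7.58), and within that slide the difference was -0.85. With slide as a fixed term it was also -0.85 (adjusted p = 0.482), and with slide as a random block -1.32 (adjusted p = 0.236).

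Eomes, a T-box factor of NK cell and memory T cell maturation, read 7.57, 7.26 and 7.30 at 0 Gy, 6.28, 6.30 and 6.07 at 4 Gy, 5.30, 5.53 and 5.81 at 8 Gy, and 5.90, 5.70 and 5.42 at 12 Gy. It was called at 4 Gy (-1.16 ± 0.18, adjusted p = 0.00198) and at 8 Gy (-1.83 ± 0.18, adjusted p = 1.54e-05). At 12 Gy no array was well above background, and its values there, at background, were 3.26-fold lower than in controls (adjusted p = 2.27e-05). Another Eomes probe was well above background on 2 lung arrays, both of 12 Gy, and gave 1.14 ± 0.46 (adjusted p = 0.0866), so the probes differed in sign. The mean of both probes was not called (-0.28, adjusted p = 0.465).

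**Figure D2:**
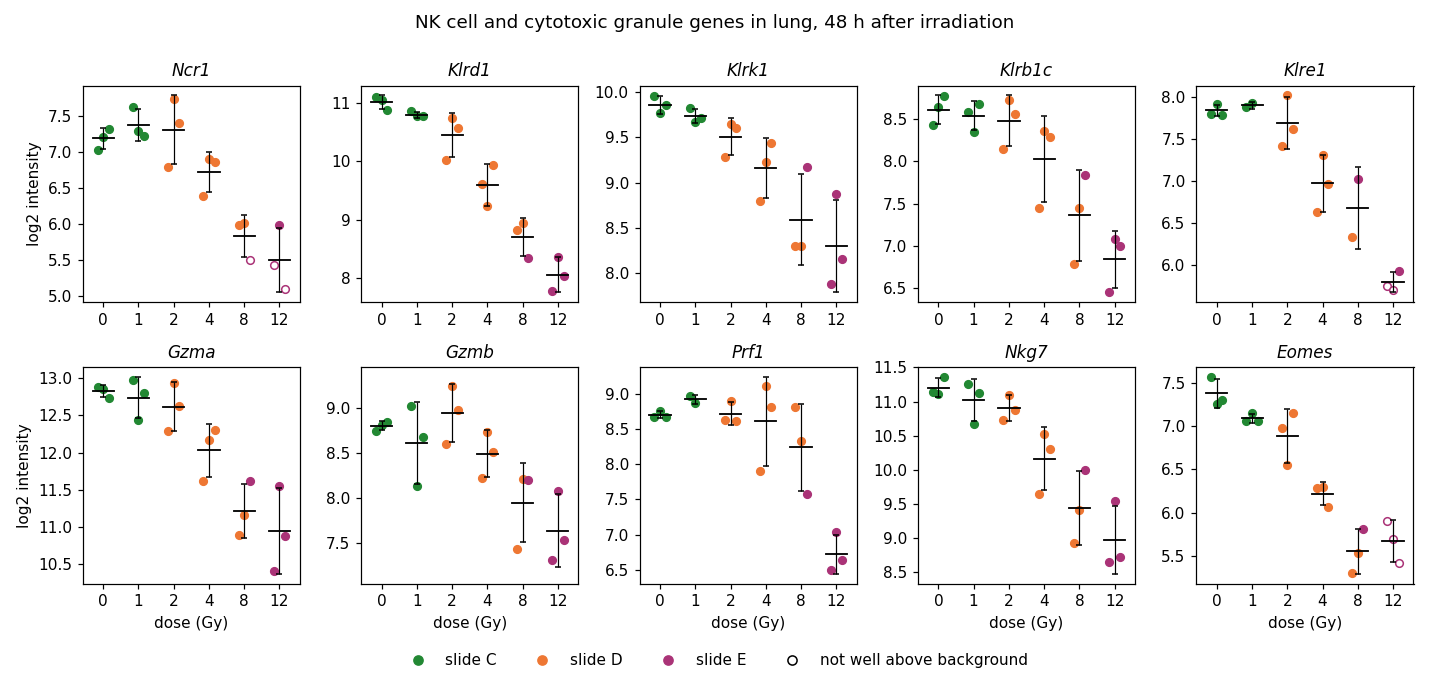
Log2 intensity of the 10 genes on each lung array by dose (Gy), with group means (bars) and SD, coloured by slide, open where the probe was not well above background. Klrd1 runs from 10.88 to 11.10 at 0 Gy to 7.78 to 8.37 at 12 Gy, and the Prf1 groups up to 8 Gy hold arrays at or above the control levels.

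By count, 0 of 10 genes were called lower at 1 Gy (0.0114% of all probes tested in lung) and 0 at 2 Gy (0.375%). At 4 Gy 2 were called (1.22% of all probes), at 8 Gy 8 (1.99%) and at 12 Gy 10 (4.27%). The median log2 fold change of the members was -0.10 at 1 Gy, -0.18 at 2 Gy, -0.76 at 4 Gy, -1.31 at 8 Gy and -1.83 at 12 Gy, while the median over all tested probes was 0.036, 0.039 and 0.094 at the last 3 doses. Every irradiated array lay below every control array for 9 genes at 4 Gy (7.28% of all probes), 9 at 8 Gy (7.03%) and 10 at 12 Gy (13.3%), with Prf1 the exception at 4 and 8 Gy. None of the 10 was called between 12 and 8 Gy (0.161% of all probes were called lower, 8650 of 43979 at an unadjusted p below 0.05), and leaving out the array of lung 4 Gy replicate 4 or of 8 Gy replicate 25 raised that count to 1. With slide as a random block 4 rather than 8 genes were called at 8 Gy and 1 rather than 2 at 4 Gy, and Klrb1c lost its call at 8 Gy without 0 Gy replicate 11 (-1.24), 0 Gy replicate 21 (-1.18) or 8 Gy replicate 5 (-0.97), as Klre1 did without 8 Gy replicate 15 (-0.82).

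Within 1 slide the members also differed between doses. On slide D, 9 of 10 genes had every 8 Gy array below every 2 Gy array (12.4% of all probes), with a median log2 difference of -1.35, and the exception was Prf1 (-0.14). Here 2 arrays stood for 8 Gy, and 1 for Klre1. On the same slide 4 of 10 genes had every 4 Gy array below every 2 Gy array (5.94% of all probes), and the mean differences of the 10 genes had a median of -0.60. On slide E, 7 of 10 genes had all 3 arrays of 12 Gy below the lone array of 8 Gy (22.0% of all probes, median -0.76), among them Prf1 (-0.85) and Nkg7 (-1.02), whereas Ncr1 (-0.0042) and Eomes (-0.13) were level.

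In liver fewer of the genes were called. Gzma, Gzmb, Klrd1, Nkg7 and Klrk1 were called lower at 12 Gy, Gzmb alone at 8 Gy, and none at 1, 2 or 4 Gy. Prf1 was not called at any dose. Eomes was not well above background on any liver array and could not be tested, Ncr1 was above it on 1 of 18 arrays, Klre1 on no array that entered the fit, and Klrb1c on 14, so the liver result rests on the other 6 genes, each above background on at least 17 of 18 arrays.

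Gzma read 8.49, 8.74 and 8.28 in liver at 0 Gy, 8.14, 8.35 and 8.14 at 4 Gy, 7.67, 7.53 and 7.74 at 8 Gy, and 6.28, 7.06 and 6.66 at 12 Gy. The 8 Gy group lay below the controls and the 12 Gy group below the 8 Gy group, without overlap. Gzma differed by -0.85 ± 0.17 at 8 Gy (adjusted p = 0.00659, under the fold threshold) and was 3.56-fold lower at 12 Gy (-1.83 ± 0.17, adjusted p = 1.64e-05). Gzmb read 7.15, 6.97 and 6.92 at 0 Gy, 6.31, 5.57 and 6.13 at 8 Gy, and 5.09, 5.81 and 5.45 at 12 Gy, the lowest of these not well above background. Gzmb was 2.02-fold lower at 8 Gy (-1.01 ± 0.25, adjusted p = 0.0228), a call that was lost without 0 Gy replicate 1, without 0 Gy replicate 11 or without 8 Gy replicate 15 (range -1.17 to -0.80), and 2.96-fold lower at 12 Gy (-1.56 ± 0.25, adjusted p = 0.0018).

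Nkg7 read 8.14, 8.10 and 7.85 at 0 Gy, 7.22, 7.29 and 7.25 at 8 Gy, and 6.68, 6.78 and 6.72 at 12 Gy. Its 3 groups did not overlap, and the change was -0.77 ± 0.15 at 8 Gy (adjusted p = 0.00546) and 2.47-fold lower at 12 Gy (-1.31 ± 0.15, adjusted p = 0.000116). Klrd1 read 7.07, 7.13 and 6.99 at 0 Gy, 6.39, 6.15 and 6.45 at 8 Gy, and 5.39, 5.81 and 5.51 at 12 Gy. It was 2.81-fold lower (-1.49 ± 0.13, adjusted p = 1.25e-05) at 12 Gy, where 2 of 3 arrays were well above background. Klrk1 read 8.28, 8.10 and 8.20 at 0 Gy and 6.66, 7.54 and 7.01 at 12 Gy (-1.12 ± 0.25, adjusted p = 0.0138), which fell out of the called set without 0 Gy replicate 1 (-1.08, adjusted p = 0.0515), 12 Gy replicate 6 (-0.92, adjusted p = 0.0715) or 12 Gy replicate 26 (-1.09, adjusted p = 0.0509).

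Prf1 was not shown to change in liver. It read 6.37, 6.57 and 6.60 at 0 Gy, 6.84, 6.71 and 6.75 at 8 Gy, and 6.89, 6.57 and 6.29 at 12 Gy, all well above background. Its difference at 12 Gy was 0.074 ± 0.16 (adjusted p = 0.865), with a 95% interval from -0.28 to 0.42. Klrb1c read 5.85, 5.96 and 5.62 at 0 Gy and 5.39, 5.63 and 4.93 at 12 Gy, where no array was well above background (-0.49 ± 0.22, adjusted p = 0.215). Ncr1 gave 0.19 ± 0.23 (adjusted p = 0.721), a value at background on which no direction can be read, and Klre1, also at background and with 2 arrays of 12 Gy, gave -0.90 ± 0.22 (adjusted p = 0.022).

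**Figure D3:**
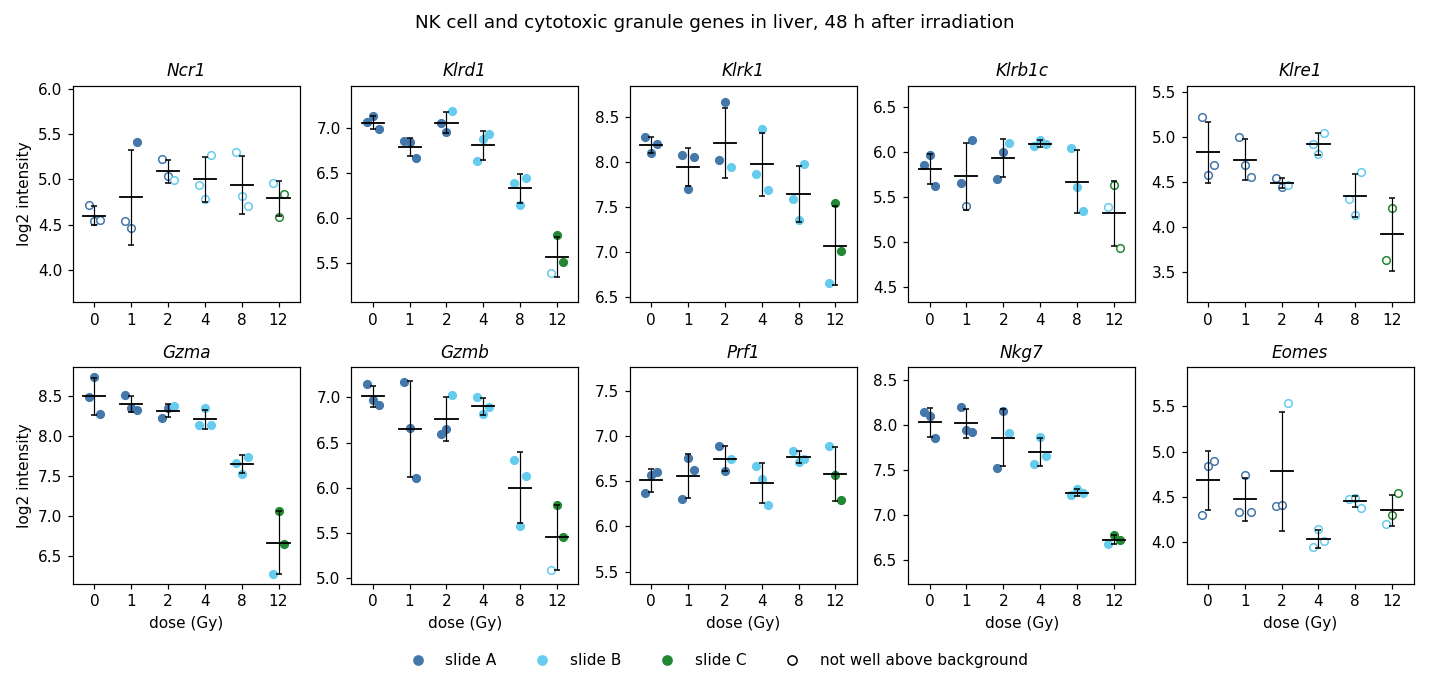
Log2 intensity of the 10 genes on each liver array by dose (Gy), with group means (bars) and SD, coloured by slide, open where the probe was not well above background. Gzma, Nkg7 and Klrd1 lie below the controls at 8 and 12 Gy, Prf1 stays between 6.24 and 6.89 on all 18 arrays, and Ncr1, Klre1 and Eomes are mostly open points.

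Of the 9 genes tested in liver, 0 were called lower at 1 Gy (0.0209% of all probes tested in liver), 0 at 2 Gy (0.164%), 0 at 4 Gy (0.623%), 1 at 8 Gy (1.36%) and 5 at 12 Gy (1.33%). The median log2 fold change was -0.079 at 1 Gy, -0.00039 at 2 Gy, -0.11 at 4 Gy, -0.55 at 8 Gy and -1.12 at 12 Gy, against 0.0048 and 0.0089 over all probes at 8 and 12 Gy. Every irradiated array lay below every control for 5 genes at 8 Gy (15.9% of all probes) and 6 at 12 Gy (15.0%), the last including Klre1, which was at background and had 2 arrays. Between 12 and 8 Gy limma called 0 genes and 0% of all probes, with 3752 of 38362 probes at an unadjusted p below 0.05. With a normexp offset of 50, 1 of the 5 genes was still called at 12 Gy (Gzma), and with slide as a fixed term 2 were. On slide B, 6 of 10 genes had every 8 Gy array below every 4 Gy array (9.68% of all probes, median -0.44). The 6 included Klre1, which was at background at both doses. For 6 of 9 the lone 12 Gy array lay below every 4 Gy array (34.3%, median -1.02). Eomes, which was not tested in liver, was among the 10 and the 9.

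A straight line in dose described the change over 12 Gy with all 18 arrays of a tissue. In lung all 10 genes had a called downward slope (4.31% of all probes), from -3.05 ± 0.20 for Klrd1 (adjusted p = 4.78e-08), -2.35 ± 0.23 for Nkg7 and -2.10 ± 0.19 for Klre1 to -1.25 ± 0.22 for Gzmb (adjusted p = 0.000384), in log2 over 12 Gy. Without the 4 arrays of slide E, an alternative chosen after seeing the data, 8 of 10 were called, and Prf1 (-0.32, adjusted p = 0.706) and Gzmb (-1.42, adjusted p = 0.0558) were not. With slide as a fixed term 7 of 10 were called, and Prf1 (-0.69, adjusted p = 0.923), Ncr1 (-1.93, adjusted p = 0.238) and Gzmb (-2.09, adjusted p = 0.091) were not. The 4.31% belongs to the main fit, and shares of all probes in the alternative fits are not given. In liver 5 of 9 were called (1.13% of all probes), led by Gzma (-1.76 ± 0.16, adjusted p = 2.32e-06), Gzmb (-1.48 ± 0.22, adjusted p = 0.000329) and Klrd1 (-1.41 ± 0.14, adjusted p = 6.71e-06). With a normexp offset of 50, 2 of these 5 were called (Gzma and Nkg7), and Klrk1 (-1.05 ± 0.20, adjusted p = 0.00251) was not called without 2 Gy replicate 13 (-0.99), 12 Gy replicate 6 (-0.86) or 12 Gy replicate 26 (-0.98).

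The difference between the tissues was itself tested, as lung minus liver. For the slope, 6 of 10 genes fell more in lung (3.62% of all probes were called lower). Prf1 differed by -1.90 ± 0.33 (adjusted p = 0.000238), Klrd1 by -1.75 ± 0.27 (adjusted p = 5.84e-05), Ncr1 by -1.75 ± 0.34 (adjusted p = 0.000577), Nkg7 by -1.27 ± 0.28 (adjusted p = 0.00203), Klrb1c by -1.19 ± 0.31 (adjusted p = 0.00759) and Eomes by -1.11 ± 0.36 (adjusted p = 0.0313). Ncr1 and Eomes had liver levels at background, so that a fall there could not have been seen, and Klrb1c was near it. Prf1, Klrd1 and Nkg7 were measurable in both tissues. Klrd1 in liver was well above background on 2 of 3 arrays at 12 Gy, so the fall that could be seen there may have been limited. Gzma (-0.62 ± 0.30, adjusted p = 0.157) and Gzmb (0.36 ± 0.33, adjusted p = 0.502, 95% interval -0.31 to 1.03) were not shown to differ between the tissues. In the response to 12 Gy alone, 4 of 10 genes were called (2.68% of all probes), namely Prf1 (-1.94 ± 0.36, adjusted p = 0.00139), Ncr1 (-1.64 ± 0.39, adjusted p = 0.0086), Klrd1 (-1.55 ± 0.28, adjusted p = 0.00107) and Nkg7 (-1.17 ± 0.36, adjusted p = 0.0369). With slide as a fixed term none of the 6 slope differences passed (adjusted p from 0.245 to 0.912). The Eomes slope difference was not called without liver 0 Gy replicate 1 (-1.05) or liver 12 Gy replicate 26 (adjusted p = 0.0736), and the Nkg7 difference at 12 Gy was called in 26 of 36 fits that each left out 1 array of either tissue, and was lower in lung in all 36.

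**Figure D4:**
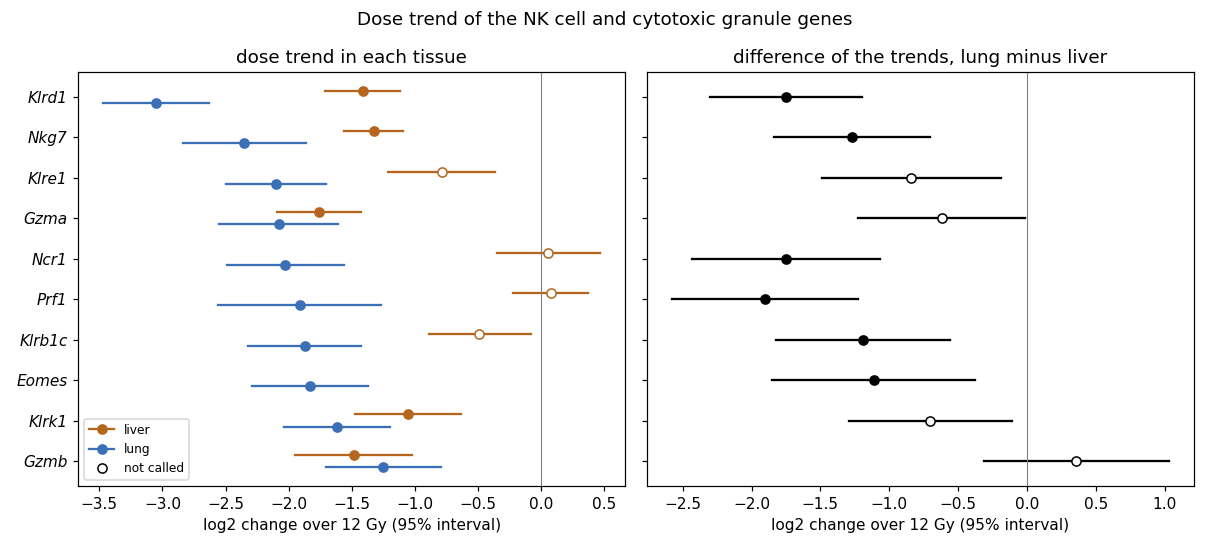
Dose trend of each gene as log2 change over 12 Gy with 95% intervals, for liver and lung (left) and for lung minus liver (right), with open points where the gene was not called. All 10 lung slopes are called, from -3.05 for Klrd1 to -1.25 for Gzmb, and the Prf1 slope is 0.077 in liver and -1.91 in lung.

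Other genes of the NK pathway were read from lists. For these lists and the cell markers below, the shares of all probes called lower at 12 Gy were 4.27% in lung and 1.33% in liver. Of 21 further NK receptors, 19 were on the array and 17 were tested in lung, where 8 were called lower at 12 Gy (median -0.99). The largest among them were Klrg1, an inhibitory receptor of mature NK and effector T cells (-2.63 ± 0.29, adjusted p = 3.33e-05), and the Ly49 receptors Klra8 (-2.50 ± 0.25, adjusted p = 1.13e-05) and Klra7 (-2.32 ± 0.24, adjusted p = 1.47e-05), followed by Slamf7 (-2.07) and Klra9 (-1.89). Ly49 genes are near-identical copies, so their probes may share signal. In liver 1 of 11 was called, Klra7 (-1.22 ± 0.27, adjusted p = 0.0129, median of the list -0.68).

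Of 8 signalling adaptors, 4 were called lower in lung at 12 Gy (median -1.15), namely Sh2d1a, the SLAM adaptor SAP shared with T cells (-3.12 ± 0.52, adjusted p = 0.000968), Sh2d2a (-1.67), Cd247 (-1.52) and Tyrobp, the DAP12 adaptor (-1.36 ± 0.24, adjusted p = 0.00131). In liver 1 of 6 was called, Sh2d1a (-1.29 ± 0.19, adjusted p = 0.000779). The other granzymes and the release machinery moved little as a list. In lung 2 of 12 were called lower (median -0.025), Ctsw, a cathepsin of cytotoxic lymphocytes (-2.18 ± 0.28, adjusted p = 0.000119), and Ctsc, which activates granzymes (-1.01 ± 0.31, adjusted p = 0.0324). In liver 2 of 14 were called lower (median -0.36), Srgn, the granule proteoglycan serglycin (-1.07 ± 0.17, adjusted p = 0.00165), and Ctsw (-1.01 ± 0.17, adjusted p = 0.00242), while Srgn in lung gave 0.025 ± 0.14.

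Of 8 tested transcription factors of the NK lineage, 3 were called lower and 1 higher in lung at 12 Gy (median -0.73). Ikzf3 (-2.59 ± 0.29, adjusted p = 3.08e-05), Runx3 (-2.09 ± 0.28, adjusted p = 0.000155) and Tbx21, which encodes T-bet (-1.91 ± 0.22, adjusted p = 4.46e-05), were lower, and Nfil3, needed early in NK development and expressed in many cells, was higher (1.04 ± 0.23, adjusted p = 0.00556). In liver Ikzf3 was called (-1.05 ± 0.29, adjusted p = 0.0404), 1 of 8 (median -0.12). Among cytokines, chemokines and their receptors, 9 of 15 were lower in lung (median -1.20), with S1pr5, a receptor for exit from tissue (-2.84 ± 0.29, adjusted p = 1.28e-05), Ccl5 (-2.10), Xcl1 (-2.09), Cxcr3 (-1.85) and Ccl3 (-1.46), and 2 of 11 in liver (median -0.59), Ccl5 (-1.85 ± 0.17, adjusted p = 1.64e-05) and Xcl1 (-1.35 ± 0.21, adjusted p = 0.00139). Il15, the cytokine that maintains NK cells, was not called in lung (0.11 ± 0.16, adjusted p = 0.643) or liver (-0.17 ± 0.19, adjusted p = 0.703). Of the ligands of NKG2D and CD94-NKG2A, none of 4 tested in lung (median 0.23) and none of 2 in liver (median -0.33) was called at 12 Gy.

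Markers of T and B lymphocytes were also lower. In lung 12 of 13 T cell markers were called lower at 12 Gy (median -2.73), and their summed linear intensity went from 15400 to 61100 at 0 Gy, with 13 of 13 markers well above background, to 4260 to 6190 at 12 Gy, with 9 or 10 above it, and none at 0. The control array of replicate 21 held the highest of these sums, and without it all 10 NK and granule genes were still called in lung at 12 Gy. T cell markers had lower medians than the members at low doses, a difference that was not tested. They were -0.82 at 1 Gy, -1.27 at 2 Gy and -2.18 at 4 Gy, against -0.10, -0.18 and -0.76 for the NK and granule genes. The T cell sums at 1 Gy, 13000 to 16400, overlapped the other 2 controls (15400 and 20900), while those at 2 and 4 Gy lay below every control. T cell medians without control replicate 21 were not computed. The contrast at 1 Gy may depend on that array, and so may the size of the lung T cell medians at the other doses. In liver 5 of 12 T cell markers were called at 12 Gy (median -0.81). The liver sum of T cell markers was 9800 to 13700 at 0 Gy and 8440 to 9960 at 12 Gy, ranges that overlap. At 8 Gy it was 9920 to 13100, within the control range, so the sum showed no steady course with dose. Of the B cell markers, 12 of 14 were called lower in lung at 12 Gy (median -3.75) and 7 of 13 in liver (median -1.01). Lung control replicate 21 also held the highest B cell sum at 0 Gy (47600, against 22100 and 35600). Markers of type 1 innate lymphoid cells were lower in 5 of 6 cases in lung (median -1.87) and 2 of 6 in liver (median -1.03), and Ltb (-3.86 in lung, -2.23 in liver) and Cxcr6 (-2.75 in lung), both also T cell genes, were among them. No macrophage marker was called in lung at 12 Gy (0 of 11, median 0.025), 1 of 11 was called in liver (median -0.69), and neutrophil markers went both ways. Of 13 tested in lung, Camp was called lower (-2.43) and Mmp8 higher (1.29, median of the list 0.32), and of 12 in liver, Camp was called lower (-1.04) and Lcn2 higher (1.08, median 0.15). The part of T cells and other lymphocytes in the granule gene result was not tested, and Ncr1, Klrb1c and Klre1 are the members least shared with conventional T cells.

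**Figure D5:**
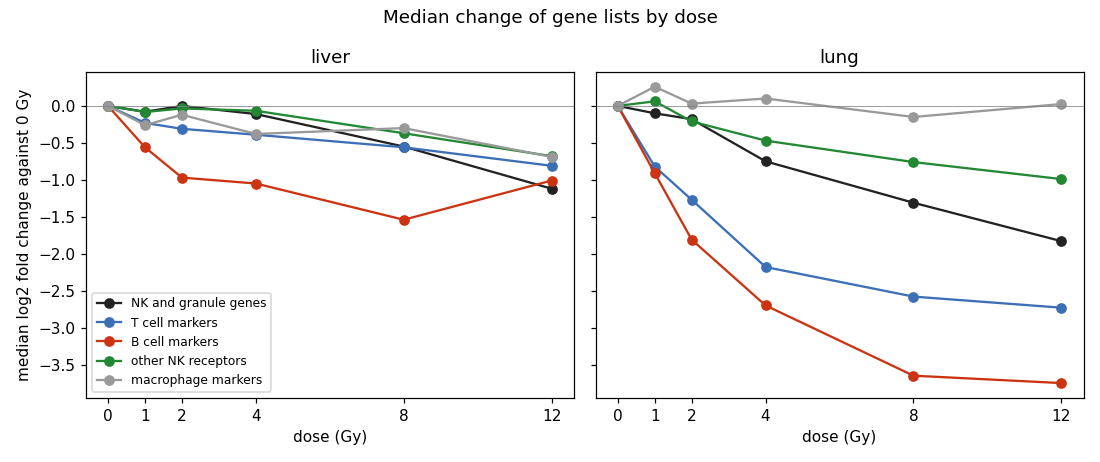
Median log2 fold change against 0 Gy at each dose (Gy) for the NK and granule genes, further NK receptors, T cell, B cell and macrophage markers in liver (left) and lung (right). In lung the B cell line reaches -3.75 and the T cell line -2.73 at 12 Gy, below -1.83 for the NK and granule genes. In liver at 12 Gy these 3 lines lie between -1.12 and -0.81, with macrophage markers (-0.69) and further NK receptors (-0.68) close above.

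The genes whose pattern was most like the mean of the members were found by Pearson correlation over the 18 arrays of a tissue, given as a description, since these arrays share the dose design. In lung, out of 15688 genes, they were the Ly49 receptors Klra16 (r = 0.982), Klra8 (0.978) and Klra4 (0.976), the chemokine Ccl5 (0.975) and the chemokine receptor Cxcr6 (0.972). In liver, out of 13578 genes and with 9 members in the mean, they were Ccl5 (0.958), the T cell receptor chain Cd3d (0.924), Cd7 (0.917), Ctsw (0.906) and Ppp1r16b (0.904). Ccl5 appeared in the 5 most alike of both tissues.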

How the data were processed

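Total RNA of liver and lung was amplified from its poly(A)+ part, which can compress differences, and hybridised to 1-colour Agilent mRNA arrays of 59305 spots and 56605 probes, read by the authors with Agilent Feature Extraction 11.5.1.1. The deposited scanner tables give, for every spot, a median intensity and a local background intensity, with no normalization between arrays. The authors also deposited a table of linear intensity values, which equal the scanner's processed signal divided by a single number for each array, so that the 75th percentile lies near 1, and it served as an alternative.

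Intensities were corrected with normexp (offset 0), control spots were dropped, spots marked as outliers were set to missing, and arrays of 1 tissue (or all 36 for comparisons between tissues) were quantile-normalized, put on a log2 scale and averaged per probe. Probes well above background (at least 0.5 of their spots) on at least 1 array were tested with limma 3.58.1 (R 4.3.3, statmod 1.5.0 for the blocks). Plots came from matplotlib 3.10.9 under Python 3.11.15. Models had 1 coefficient per dose or a slope in dose, given as the log2 change over 12 Gy, and p values were adjusted by Benjamini-Hochberg over all tested probes. A probe was called above an absolute log2 fold change of 1 at an adjusted p below 0.05. All adjusted p values are from limma, the ± values beside fold changes are standard errors, and replicates are 3 animals per dose by the methods for liver, while nothing used here says so for lung, where p values may measure only the spread between samples. Where a group's probe was not well above background on any array, the fold sets the bright group's mean against the dim group. Each dim array entered with the higher of its own value and its lowest signal well above background. Such folds rest on background values and are not lower limits. The number of arrays limits the precision.

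Probes carry transcript names and no gene symbols, and 34566 were named through RefSeq, while 9009 with Ensembl names were not used here. The named genes are all 10 members, and from each further list at most the 5 with the largest change among those called at 12 Gy or in the trend. Il15 was named outside this rule after its values were seen. The members, the lists and the motifs were chosen with earlier results of these data known. The script was tested on simulated data. Shares of all probes called are from the main fit. The alternatives were a normexp offset of 50, the processed signal, the table above, no or a stricter filter, outlier spots kept, the mean of a gene's probes, slide as a fixed term or random block, sample number as a block, a log dose scale, a joint fit and leaving out each array.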

Additional observations from a re-analysis of the deposited data

Results flagged for a closer look

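The differences between lung and liver came from a test of the difference itself, lung minus liver, in log2. The dose trend over 12 Gy differed for Prf1 (-1.90), Klrd1 (-1.75), Ncr1 (-1.75), Nkg7 (-1.27), Klrb1c (-1.19) and Eomes (-1.11). The response to 12 Gy against 0 Gy differed for Prf1 (-1.94), Ncr1 (-1.64), Klrd1 (-1.55) and Nkg7 (-1.17). All had the lower value in lung. The liver values of Ncr1 and Eomes lay at background, and Prf1 in liver was well above background on all 18 arrays. Klrd1 in liver at 12 Gy was well above background on 2 of 3 arrays. All lung arrays of 12 Gy were on slide E, and without that slide the Prf1 trend in lung was -0.32 (limma, adjusted p = 0.706). With slide as a fixed term none of the trend differences was called.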

How the results depend on the processing

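Counts below are members called lower. The shares of all probes called in the same alternative fits are not set beside them. A changed count therefore does not show that the members moved apart from all probes. With a normexp offset of 50, 0 rather than 1 were called in liver at 8 Gy, 1 rather than 5 at 12 Gy, 2 rather than 5 in the liver trend, 1 rather than 2 in lung at 4 Gy and 3 rather than 6 in the difference of trends. With the processed signal scaled to the 75th percentile, 1 rather than 0 were called in liver between 12 and 8 Gy, 4 rather than 2 in lung at 4 Gy and 7 rather than 4 in the difference of the 12 Gy responses. With slide as a fixed term, 0 were called in liver at 8 Gy, 2 at 12 Gy, 1 between 12 and 8 Gy and 0 in the difference of trends, and Eomes at 0 Gy, lung against liver, turned from 1.66 to -0.13 (lung doses from 2 Gy upward against 0 Gy could not be fitted). With slide as a random block, 1 was called in lung at 4 Gy, 4 at 8 Gy and 2 in the difference of the 12 Gy responses. Prf1 between 12 and 8 Gy in lung was called under the stricter filter, with outlier spots kept and in the joint fit (1 rather than 0 each), and with the mean of all probes 1 was called in lung at 4 Gy. Leaving out 1 array gave 0 to 1 in liver at 8 Gy, 4 to 6 at 12 Gy and 4 to 5 in the trend, 2 to 3, 7 to 8 and 9 to 10 in lung at 4, 8 and 12 Gy, 0 to 1 between 12 and 8 Gy, 10 in the lung trend, 5 to 7 and 3 to 4 in the differences, and 7 at 0 Gy. The causes of these changes were not tested. The deposited linear values, the unfiltered fit and the log dose scale moved no count by over 1.5 times. Sample numbers were shared by liver and lung, but deviations of same-numbered samples correlated from -0.0784 to 0.149 (18 pairs, 1 over 0.1), and with sample number as a replicate block the counts were 6, 4 and 7, as without it, while 2 of 18 samples correlated best with their own number. The scaling moved the balance of all probes: at 12 Gy in lung 1878 were called lower and 1329 higher, against 3535 and 1138 with the processed signal, and the difference of trends went from 1716 and 1690 to 3675 and 1217. The median of all probes at 0 Gy, lung against liver, shifted to -0.28 with the processed signal. Dim probes near background bound what can be seen in liver for Ncr1, Klre1, Klrb1c and Eomes.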
